A study of Mus musculus with 12 samples.

Results

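Chondroitin sulfate proteoglycans and the proteins that tie them together were followed through 12 RNA-seq libraries of mouse cortex. The 10 genes were chosen by symbol: the lecticans Acan, Bcan, Ncan and Vcan, the transmembrane proteoglycan Cspg5, the link proteins Hapln1, Hapln2 and Hapln4, and the tenascins Tnr and Tnc. All 10 were among the 23253 genes of the deposited table, and all 10 passed the filter on low counts that left 17909 genes for testing. The libraries came from C57BL/6 mice and were labelled as cortical neurons isolated by fluorescence-activated sorting, with 4 groups of 3 libraries. They comprised adult mice with a photothrombotic stroke and GDF10 siRNA (siRNA-labelled below), adult mice with the stroke alone, P4 control animals, and adult control animals named WT. In this model a light-activated dye, rose bengal, closes the vessels under an illuminated spot of cortex. The labels do not spell out P4 and give every library, P4 included, the same line on adult mice. They do not give the time after stroke or the delivery of the siRNA, do not describe a control siRNA, and do not say whether the libraries of a group came from separate animals. Libraries are numbered 1 to 3 in the siRNA-labelled and adult control groups and 4 to 6 in the stroke and P4 groups; if the numbers mark batches, batch and group cannot be told apart in stroke or P4 against adult control or in siRNA-labelled against stroke. The p-values below measure the spread between these libraries, which may be technical.

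Lecticans are large secreted core proteins that carry chondroitin sulfate chains. One end of a lectican binds hyaluronan, a contact that link proteins stabilise, and the other end binds tenascins. Together these molecules form the diffuse matrix of the brain and the perineuronal nets, the dense coats around many parvalbumin interneurons that close plastic periods of cortical development. Chondroitin sulfate proteoglycans also build up around brain lesions, where they are known to hinder the growth of axons.

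Levels are CPM, each library's counts scaled to its total and corrected with TMM factors. Calls came from edgeR's quasi-likelihood test, with Benjamini-Hochberg adjustment across the 17909 genes and 0.05 as the limit. Total counts ran from 10517638 to 48633350 per library, and the correlation of log2 CPM within a group from 0.681 to 0.989. Markers did not bear out the sorting label in the adult groups. There, 12 oligodendrocyte markers took 3.93 to 10.6% of counts and 15 pan-neuronal markers 0.168 to 0.695%, whereas in P4 they took 0.0118 to 0.0317% and 0.696 to 0.904%. In these bulk samples, fewer cells of a type and less RNA per cell cannot be told apart. The siRNA target Gdf10, a secreted signalling protein related to TGF-beta, had raw counts of 8, 7 and 1 in siRNA-labelled libraries 1 to 3, against 0, 5 and 0 in stroke libraries 4 to 6. It had 189, 241 and 33 counts in P4 libraries 4 to 6, against 15, 21 and 0 in adult control libraries 1 to 3. At 8 counts or fewer on both sides, a knockdown could not be checked, and the siRNA-labelled values did not lie below those of stroke (log2 fold change 2.34, 95% interval -1.23 to 5.91).

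The lectican and link protein genes lie in neighbouring pairs (GENCODE M21, mm10). Bcan (chromosome 3, 87987531 to 88000230) lies 21.5 kb from Hapln2 (88021750 to 88027583), on the same strand. Ncan (chromosome 8, 70093085 to 70120873) lies 2.22 kb from Hapln4 (70083457 to 70090862) on the opposite strand. Vcan (chromosome 13, 89655312 to 89742509) lies 43.7 kb from Hapln1 (89539796 to 89611652), also on the opposite strand, and the ends of Acan (chromosome 7, 79053483 to 79115099) and of Hapln3 are 2 bp apart. No other protein-coding gene was annotated between the genes of any of the 4 pairs. Cspg5 (chromosome 9, 110243783 to 110262576), Tnr (chromosome 1, 159523769 to 159931729) and Tnc (chromosome 4, 63959785 to 64047015) have no partner of this kind. The strand setting of the counting is not known, so reads at the ends of close neighbours cannot be told apart.

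Promoters are shown for 5 of the 7 genes that changed between P4 and adult control, 3 lower and 2 higher, so that genes of opposite direction can be compared at sequence level. The 5 were chosen after their values were seen. Each is the 250 bases before a transcription start in RefSeq's annotation of GRCm38.p6, 5' to 3' on the strand of the gene, and 8 of the 10 genes had an entry. Among the printed windows, those of Hapln2 and Ncan reach into the gene as GENCODE annotates it. Capitals mark GC boxes (GGGCGG) and E boxes (CANNTG) on either strand. The first 3 belong to genes that were lower in P4.
Hapln2, chr3:88027512-88027761, minus strand: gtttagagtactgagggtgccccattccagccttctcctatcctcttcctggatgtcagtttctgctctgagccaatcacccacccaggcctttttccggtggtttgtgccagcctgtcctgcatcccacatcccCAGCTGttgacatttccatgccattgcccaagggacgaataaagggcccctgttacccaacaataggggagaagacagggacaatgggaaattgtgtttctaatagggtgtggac
Bcan, chr3:88000357-88000606, minus strand: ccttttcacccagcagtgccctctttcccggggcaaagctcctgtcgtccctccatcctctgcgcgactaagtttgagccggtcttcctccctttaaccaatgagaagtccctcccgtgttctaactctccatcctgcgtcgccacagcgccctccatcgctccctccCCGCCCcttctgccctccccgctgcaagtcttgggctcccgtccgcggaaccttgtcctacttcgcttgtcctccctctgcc
Tnr, chr1:159523519-159523768, plus strand: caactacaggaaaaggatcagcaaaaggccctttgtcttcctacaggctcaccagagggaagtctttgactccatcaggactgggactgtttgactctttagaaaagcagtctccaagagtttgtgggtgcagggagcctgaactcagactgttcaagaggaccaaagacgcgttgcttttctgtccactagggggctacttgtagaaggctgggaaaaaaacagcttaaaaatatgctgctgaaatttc
The next 2 belong to genes that were higher in P4.
Ncan, chr8:70120845-70121094, minus strand: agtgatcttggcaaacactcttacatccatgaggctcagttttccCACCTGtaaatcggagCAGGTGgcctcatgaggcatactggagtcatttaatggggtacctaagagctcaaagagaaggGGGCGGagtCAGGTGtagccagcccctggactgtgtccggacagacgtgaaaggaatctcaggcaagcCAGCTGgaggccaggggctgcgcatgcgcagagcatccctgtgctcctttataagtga
Tnc, chr4:64047016-64047265, minus strand: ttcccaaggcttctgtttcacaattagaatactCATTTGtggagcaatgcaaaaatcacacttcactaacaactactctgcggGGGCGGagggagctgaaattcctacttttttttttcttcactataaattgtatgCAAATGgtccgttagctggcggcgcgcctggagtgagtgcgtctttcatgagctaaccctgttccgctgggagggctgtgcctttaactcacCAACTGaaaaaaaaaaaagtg

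The Ncan window held 4 E boxes and the Tnc window 3, against 1 in Hapln2 and 0 in Bcan and Tnr. Over all 32851 promoter windows, 66.2% held at least 1 E box. A GC box was present once in Bcan, Ncan and Tnc and absent from the Hapln2 and Tnr windows, and 32.7% of all windows held one. The TATA box TATAAA was found in Ncan and Tnc, on either strand, and in 12.4% of all windows. Hapln2 and Tnr had 2 CpG dinucleotides each, Tnc 8, Ncan 6 and Bcan 16, beside a median of 6 over all windows. Acan and Hapln1, also lower in P4, had windows that are not printed here. The Acan window held 3 GC boxes, 1 E box and 26 CpG dinucleotides, and the Hapln1 window 0, 0 and 2. The Hapln1 window (89540386 to 89540635) lies wholly inside the gene as GENCODE annotates it, from 89539796. Genes that were lower in P4 thus had both many and few GC boxes and CpG dinucleotides. These matches describe the letters of single windows and were not tested against expression.

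**Figure D1:**
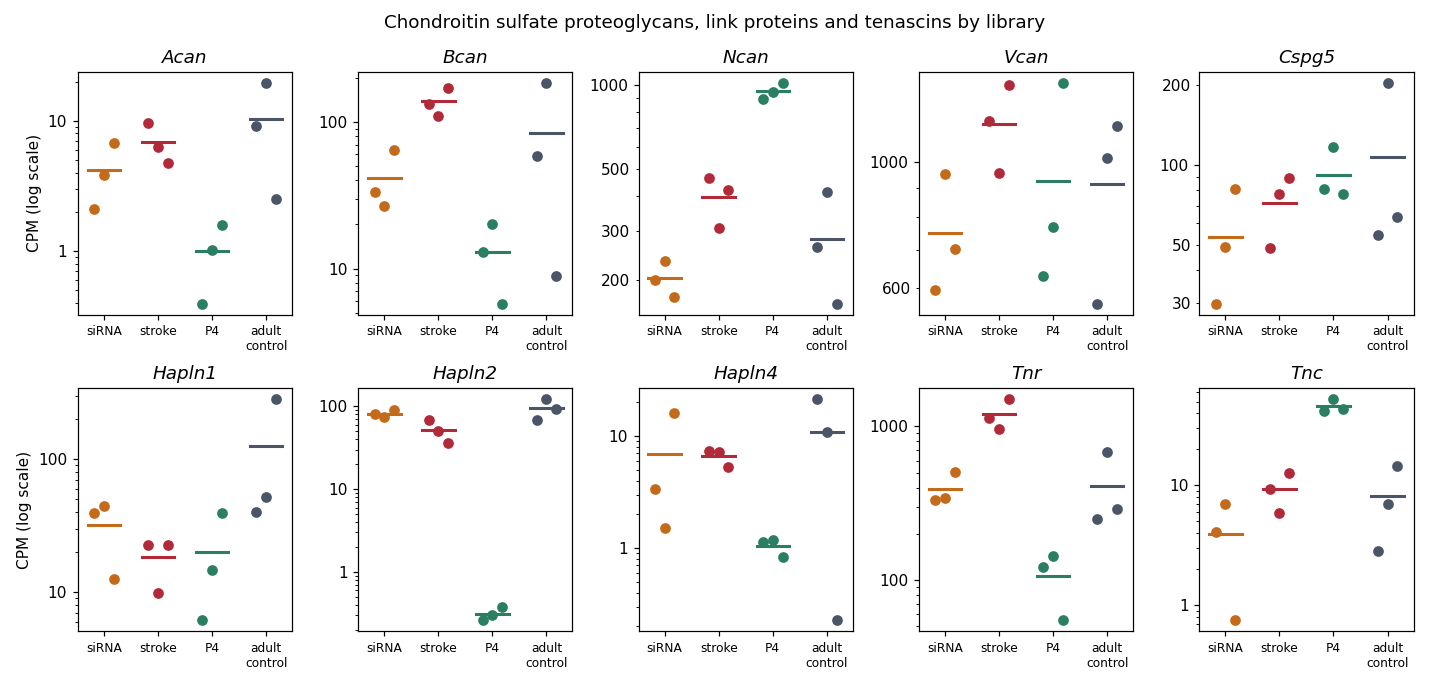
CPM on a log axis for each of the 10 genes in siRNA-labelled, stroke, P4 and adult control libraries. Each point is 1 library and each bar the mean of 3, and Hapln2 sits between 0.262 and 0.380 CPM in P4 and between 36.1 and 122.5 CPM in every adult library.

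The first question was how P4 differed from adult control. Of the 10 genes, 7 changed, 2 higher and 5 lower, where 16.8% of all tested genes changed (6.32% higher and 10.4% lower). Ncan, or neurocan, a lectican typical of the young brain, and Tnc, tenascin-C, a matrix protein of development and injury, rose in P4. Hapln2, Acan, Bcan, Hapln1 and Tnr fell. P4 and adult control libraries did not overlap for 6 of the 10 genes, 2 higher and 4 lower, beside 32.1% of all genes (16.1% higher and 16% lower). The median log2 fold change of the 10 genes was -2.28, and that of all genes was -0.16.

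Ncan was at 895, 946 and 1019 CPM in P4, against 264, 415 and 165 CPM in adult control. Every P4 library lay above every other library of the series. The log2 fold change was 1.76 (SE 0.34, adjusted p = 0.00198, edgeR), and the call held when any of the 6 libraries was left out. Vcan, or versican, had similar means in both groups, 927 ± 399 CPM in P4 and 914 ± 312 CPM in adult control (SD, n = 3 each). Its log2 fold change was 0.02 (95% interval -0.74 to 0.78).

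Bcan, or brevican, the lectican of the adult brain, was at 13.1, 20.1 and 5.76 CPM in P4, against 58.6, 184 and 8.89 CPM in adult control. The third adult control library lay among the P4 libraries. The log2 fold change was -2.69 (SE 0.78, adjusted p = 0.027). Acan, or aggrecan, the main lectican of perineuronal nets, was at 0.393, 1.01 and 1.58 CPM in P4, against 9.07, 19.6 and 2.51 CPM in adult control. It was low everywhere, and its groups did not overlap (log2 fold change -3.40, SE 0.90, adjusted p = 0.017). Cspg5, or neuroglycan C, a neuronal transmembrane proteoglycan, did not pass (-0.23, 95% interval -1.30 to 0.84).

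Of the link proteins, Hapln2 and Hapln1 fell in P4 and Hapln4 did not pass. Hapln2, known from the nodes of Ranvier of myelinated axons, was at 0.262, 0.297 and 0.380 CPM in P4, against 69.0, 122.5 and 93.0 CPM in adult control. It fell by 8.27 on the log2 scale (SE 0.50, adjusted p = 9.31e-08), more than any other of the 10 genes. The oligodendrocyte markers moved with it: all 12 were lower in P4 by the same test, with a median log2 fold change of -8.66. Their part in the Hapln2 result was not tested. Hapln1, the link protein known from perineuronal nets of the cortex, was at 6.17, 14.7 and 39.7 CPM in P4, against 39.7, 52.4 and 283 CPM in adult control. The highest P4 library and the lowest adult control library were nearly level, and the adult control mean rested on the third library (-2.63, SE 0.81, adjusted p = 0.0374). Hapln4, a link protein that binds brevican in nets, was at 1.12, 1.19 and 0.823 CPM in P4, against 21.3, 10.8 and 0.228 CPM in adult control. It did not pass (-3.36, 95% interval -5.84 to -0.88, adjusted p = 0.0623). It passed without adult control library 3, which had the lowest value (-3.92, adjusted p = 0.00342), and with DESeq2 (adjusted p = 0.00742), which called 8 of the 10 genes and 27.6% of all. In the authors' deposited table its false discovery rate was 0.0183, where 15.4% of all genes were under 0.05.

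Of the tenascins, Tnr fell and Tnc rose in P4. Tnr, the tenascin of oligodendrocyte lineage cells and perineuronal nets, was at 121, 144 and 55.0 CPM in P4, against 252, 679 and 292 CPM in adult control (-1.93, SE 0.43, adjusted p = 0.00617). Tnc was at 41.8, 52.4 and 43.3 CPM in P4, against 2.81, 7.02 and 14.6 CPM in adult control (2.50, SE 0.75, adjusted p = 0.0316). Neither gene had overlapping groups. Within a library, Tnr had 2.90, 2.75 and 1.27 counts per count of Tnc in P4, against 89.4, 96.6 and 19.98 in adult control, a ratio that does not depend on scaling. Relative to Olig1, a transcription factor of the oligodendrocyte lineage, Tnr went the other way. It had 13.7, 11.7 and 5.83 counts per count of Olig1 in P4, against 1.11, 1.47 and 2.60 in adult control.

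The calls of Hapln2, Ncan and Tnr held with any 1 library left out, and the other 4 did not. Of the 10 genes, 3 were called without P4 library 4, 4 without P4 library 5 or adult control library 2, and 5 without P4 library 6. The count was 6 without adult control library 1 and 7 without adult control library 3, where Hapln1 left and Hapln4 entered. Over all genes, 1852 were called without P4 library 4, against 3001 with all 12 libraries. Without adult control library 1, 2 or 3 the count over all genes was 2530, 2860 or 3099. The Tnc call was lost in all of the fits with 1 library left out but the one without adult control library 3. The Acan call was lost without adult control 2, P4 4 or P4 5, the Bcan call without adult control 2, P4 4 or P4 6, and the Hapln1 call without adult control 3 (log2 fold change -1.20), P4 4 or P4 5. Without adult control library 2 the log2 fold change was -1.37 for Bcan, -2.56 for Acan and -1.33 for Tnr (adjusted p = 0.0299). That of Tnc was 3.22 without adult control library 3, and that of Hapln1 was -3.56 without P4 library 6. A fit of these 6 libraries alone called 3 genes, Hapln2, Ncan and Tnc, with Tnr at an adjusted p of 0.0564, and it called 1639 of all genes, against 3001 over all 12 libraries. All 12 markers of oligodendrocyte precursors, glia that make several of these proteoglycans, were also lower in P4 (median -3.87), as were 8 of 12 astrocyte markers (median -2.96) and 11 of 12 microglia markers (median -5.32). Of 10 markers of excitatory neurons, 5 were higher and 1 was lower (median 2.31). Over all genes 6.32% were higher and 10.4% lower, so the 1 lower excitatory marker was near the background. The part of these cell types in the 7 changes was not tested.

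**Figure D2:**
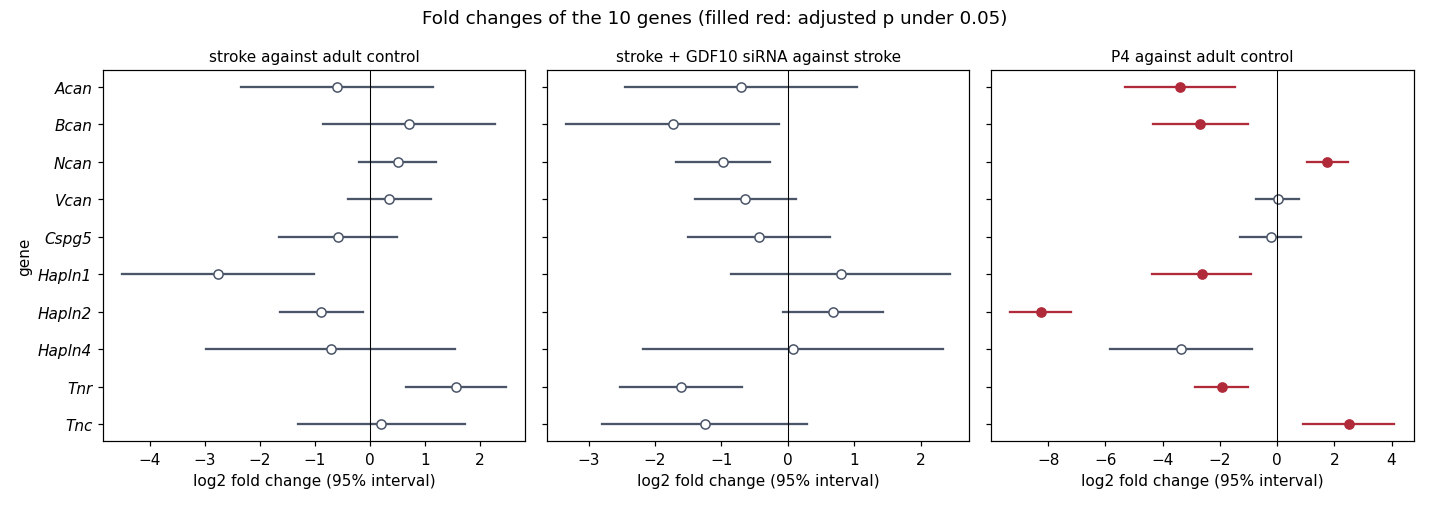
Log2 fold change with its 95% interval for each gene in 3 comparisons, with filled red points where the adjusted p was under 0.05. Filled points appear in the P4 comparison alone. Some intervals of open points also leave out 0. They are those of Hapln1, Hapln2 and Tnr in stroke against adult control, of Tnr, Bcan and Ncan in siRNA-labelled against stroke, and of Hapln4 in P4.

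Measured per kilobase of annotated exon, so that genes can be set side by side, the make-up of each family in P4 and adult control is given here as a description with no test. Ncan made up 67.1 ± 6.92% of lectican CPM per kb in P4 and 31.5 ± 9.33% in adult control (SD, n = 3 each). Bcan made up 1.69 ± 1.02% in P4 and 14.5 ± 11.9% in adult control, and Acan 0.0636 ± 0.0298% and 1.05 ± 0.636% in the same groups. Among the 3 link proteins, Hapln1 took 72.5 to 94.8% in P4 libraries and 14.02 to 55.0% in adult control libraries. Hapln2 took 4.74 ± 2.73% of the link proteins in P4 and 65.7 ± 18.8% in adult control. The larger share of Hapln1 in P4 was not a higher level. Hapln1 averaged 3.42 CPM per kb in P4, against 21.2 in adult control, and Hapln2 0.132, against 40.0. Tnc took 36.3 to 56.5% of tenascin CPM per kb in P4 and 1.69 to 7.65% in adult control. The shares of the lecticans depend on the lengths taken, and Vcan has splice forms of very different length. With RefSeq transcript lengths for all 4 lecticans, an alternative chosen after seeing the data, Vcan had 2.273 kb in place of 14.462 kb, Bcan 3.141 kb in place of 4.064 kb, Acan 7.355 kb in place of 7.469 kb, and Ncan kept its length. With these lengths, Ncan made up 25.7% in P4 and 8.83% in adult control, and Vcan 73.4% and 85.2%.

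**Figure D3:**
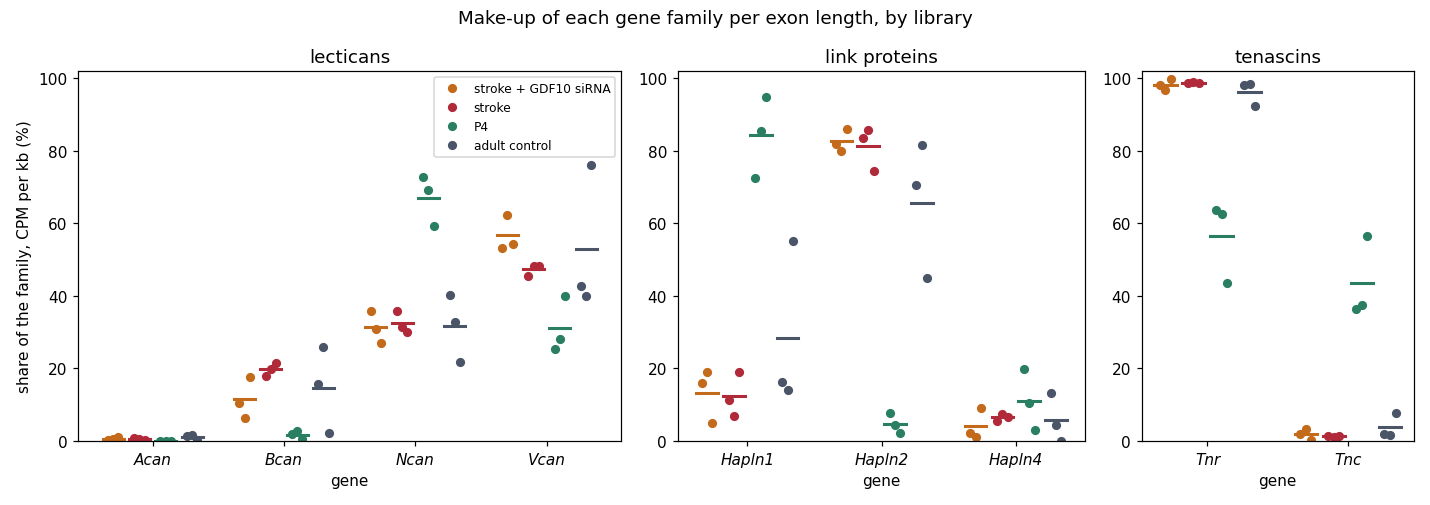
Share of each gene in the CPM per kb of its family, in percent, with 1 point per library and a bar for the mean of each group. Tnc and Hapln1 take larger shares in every P4 library than in any adult library, and Ncan lies at 59.3 to 72.6% in P4 and at 21.7 to 40.2% elsewhere. The mean CPM per kb of Hapln1 itself is lower in P4 than in adult control.

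The second question was how stroke differed from adult control. None of the 10 genes passed the edgeR test, where 0.704% of all genes did (0.486% higher and 0.218% lower). Before adjustment, p was under 0.05 for 3 of them, Tnr, Hapln1 and Hapln2, beside 2853 of the 17909 genes tested. The groups of Tnr, Hapln1 and Hapln2 did not overlap, 1 higher and 2 lower, beside 20% of all genes without overlap (11% higher and 9% lower). The DESeq2 Wald test called 2 of them, Tnr and Hapln1, where it called 7.11% of all genes. In the authors' deposited table the same pair had false discovery rates of 0.0305 and 0.0213, where 3.02% of all genes were under 0.05. The median log2 fold change of the 10 genes was -0.19, beside -0.08 over all genes.

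Tnr was at 1142, 963 and 1505 CPM in stroke, against 252, 679 and 292 CPM in adult control. Each stroke library lay above each library of the other groups. The log2 fold change was 1.56 (95% interval 0.65 to 2.48, adjusted p = 0.119). It passed when adult control library 2, the highest of its group, was left out (2.16, adjusted p = 0.0198). Tnc was at 9.38, 5.89 and 12.7 CPM in stroke, within the range of adult control (0.21, 95% interval -1.31 to 1.72).

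Hapln1 was at 22.7, 9.79 and 22.8 CPM in stroke, against 39.7, 52.4 and 283 CPM in adult control. The log2 fold change was -2.76 (95% interval -4.51 to -1.01, adjusted p = 0.144). Without the third adult control library it was -1.32 (adjusted p = 0.523). Hapln2 was at 67.9, 49.9 and 36.1 CPM in stroke, against 69.0, 122.5 and 93.0 CPM in adult control (-0.89, 95% interval -1.64 to -0.13, adjusted p = 0.247). The oligodendrocyte markers took 5.28 to 6.54% of counts in stroke and 3.93 to 9.44% in adult control. Of these 12 markers 1 passed as higher and none as lower, and their median log2 fold change was 0.46. Hapln4 was at 5.26 to 7.31 CPM in stroke, inside the span of adult control.

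The 4 lecticans and Cspg5 overlapped between stroke and adult control. Ncan was at 467, 309 and 422 CPM in stroke (0.50, 95% interval -0.19 to 1.20). Vcan was at 1185, 956 and 1369 CPM in stroke, against 563, 1018 and 1161 CPM in adult control (0.36, 95% interval -0.41 to 1.12). Bcan was at 132, 110.04 and 171 CPM in stroke (0.71, 95% interval -0.85 to 2.28). The value was 0.18 without adult control library 3 and 2.03 without adult control library 2 (adjusted p = 0.115). Its adult control libraries ran from 8.89 to 184 CPM, wider than the difference of the means. Acan (-0.59, 95% interval -2.34 to 1.15) and Cspg5 (-0.58, 95% interval -1.65 to 0.49) had intervals on both sides of 0. The interval of Hapln4 was wider still (-2.98 to 1.55).

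Marker lists of glia are given beside these values. The 12 oligodendrocyte precursor markers took 0.512 to 0.749% of counts in stroke and 0.381 to 0.672% in adult control. None passed. Without overlap, 6 were higher and 1 was lower, beside 11% and 9% of all genes, so the count that was lower was near that share. The median log2 fold change of these markers was 0.89. Tnr had 2.13, 1.71 and 2.78 counts per count of Olig1, a transcription factor of that lineage, in stroke, against 1.11, 1.47 and 2.60 in adult control. The astrocyte markers took 0.245 to 0.287% in stroke and 0.586 to 0.839% in adult control. By the test 5 of 12 were lower, beside 0.218% of all genes. Of 10 excitatory neuron markers 2 were lower by the test. The 9 interneuron markers took 0.00489 to 0.0116% of counts in stroke and 0.0167 to 0.0259% in adult control, without overlap, with 1 of 8 tested markers lower by the test and 4 lower without overlap. The part of these cells in the Tnr and Hapln1 differences was not tested.

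The third question was how the siRNA-labelled libraries differed from stroke, whose libraries also enter the comparison with adult control. None of the 10 genes passed the edgeR test, and 1 gene of all tested did (0.00558%, lower, and 0% higher). Unadjusted p was under 0.05 for Tnr, Ncan and Bcan, each lower, beside 1319 of the 17909 genes tested. The DESeq2 Wald test called 1 of the 10, Tnr (adjusted p = 0.0403), and 0.942% of all genes. The groups did not overlap for 5 of the 10 genes, 4 lower (Tnr, Bcan, Ncan and Vcan) and 1 higher (Hapln2), beside 15.9% of all genes (7.77% higher and 8.11% lower). The median log2 fold change of the 10 was -0.67, beside 0.04 over all genes.

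Tnr was at 333, 343 and 504 CPM in the siRNA-labelled libraries, against 1142, 963 and 1505 CPM in stroke. The log2 fold change was -1.61 (95% interval -2.53 to -0.70, adjusted p = 0.456). In a fit of these 6 libraries alone, Tnr and Bcan passed, with adjusted p of 0.0258 and 0.0461, where 0.578% of all genes passed. Bcan was at 33.3, 26.8 and 63.9 CPM in the siRNA-labelled libraries, against 132, 110.04 and 171 CPM in stroke (-1.73, 95% interval -3.34 to -0.13, adjusted p = 0.651). Ncan was at 199.97, 235 and 174 CPM in the siRNA-labelled libraries, against 467, 309 and 422 CPM in stroke (-0.97, 95% interval -1.68 to -0.27, adjusted p = 0.594). Vcan was at 596, 953 and 703 CPM in the siRNA-labelled libraries, just under the lowest stroke library at its highest (-0.64, 95% interval -1.41 to 0.12).

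Hapln2 was at 80.5, 74.7 and 90.4 CPM in the siRNA-labelled libraries, against 67.9, 49.9 and 36.1 CPM in stroke (0.67, 95% interval -0.08 to 1.43, adjusted p = 0.701). Oligodendrocyte markers took 6.61 to 10.6% of counts in the siRNA-labelled libraries and 5.28 to 6.54% in stroke. Hapln1 (0.80, 95% interval -0.85 to 2.45), Hapln4 (0.08, 95% interval -2.18 to 2.34), Tnc (-1.25, 95% interval -2.79 to 0.29), Acan (-0.71) and Cspg5 (-0.43) overlapped between the groups. Oligodendrocyte precursor markers took 0.278 to 0.396% of counts in the siRNA-labelled libraries and 0.512 to 0.749% in stroke, without overlap. Of these 12 markers, 7 were lower without overlap, beside 8.11% of all genes, and none was higher. None passed, and the median log2 fold change of the markers was -0.77. Relative to Olig1, Tnr had 0.809, 0.939 and 0.996 counts per count in the siRNA-labelled libraries, against 2.13, 1.71 and 2.78 in stroke. Pdgfra, the growth factor receptor of precursors, had means of 352 CPM in the siRNA-labelled libraries and 350.2 CPM in stroke. Pdgfra and Olig1 are single members of the precursor list and do not stand for it, since 7 of the 12 were lower without overlap. Microglia markers took 0.148 to 0.260% in the siRNA-labelled libraries and 0.0334 to 0.115% in stroke. Without overlap, 6 of 12 were higher, beside 7.77% of all genes. The part of these cells in the lower Tnr and Bcan values was not tested.

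**Figure D4:**
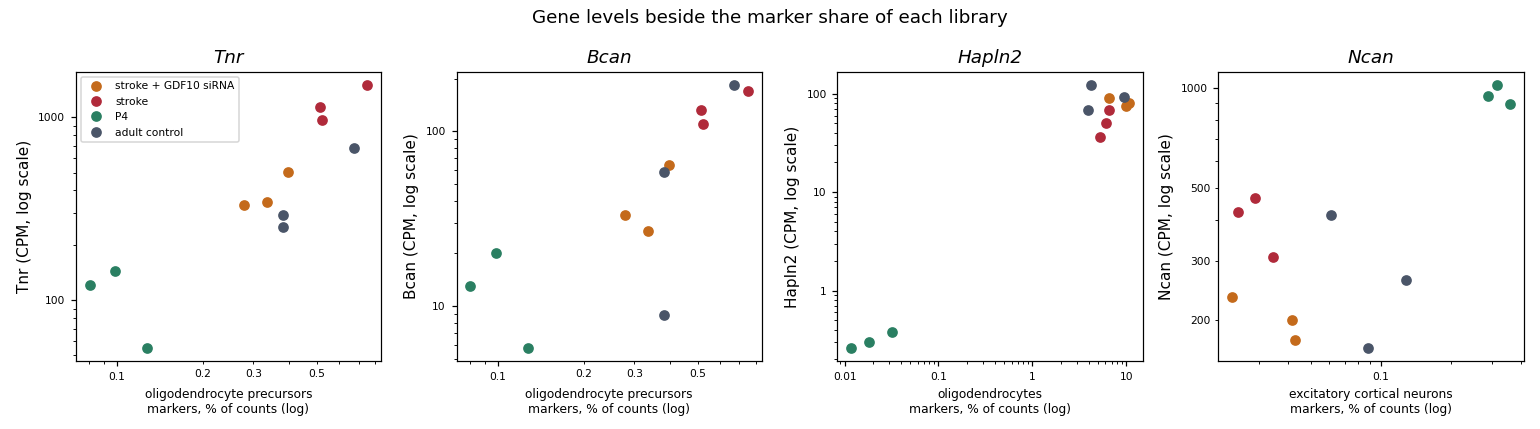
CPM of Tnr, Bcan, Hapln2 and Ncan against the share of counts on a marker list, both on log axes, with 1 point per library in 4 colours for the groups. The 4 libraries with the largest shares of precursor markers, the 3 stroke libraries and adult control 2, have the 4 highest values of Tnr and of Bcan, the 3 P4 libraries sit apart at low oligodendrocyte shares with 0.262 to 0.380 CPM of Hapln2, and adult control 3 has 8.89 CPM of Bcan at a precursor share of 0.381%.

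The siRNA-labelled group was also set against adult control, which shares its libraries with the comparisons above. None of the 10 genes passed by edgeR or DESeq2, where 0.117% of all genes passed by edgeR (0.0838% higher and 0.0335% lower) and 2.07% by DESeq2. Before adjustment, p was under 0.05 for 1 of them, Hapln1 (log2 fold change -1.96, adjusted p = 0.524). Over all 17909 genes tested it was under 0.05 for 1497, so 1 of 10 was near that share. Without adult control library 3 the log2 fold change of Hapln1 was -0.53 (adjusted p = 0.952). None of the 10 was free of overlap, beside 10.8% of all genes (6.35% higher and 4.47% lower). Tnr had means of 393 ± 95.7 CPM in the siRNA-labelled group and 407 ± 236 CPM in adult control (SD, n = 3 each), with a log2 fold change of -0.05 (95% interval -0.94 to 0.84). Hapln2 differed by -0.21 (95% interval -0.96 to 0.54). All 10 fold changes were negative, with a median of -0.82, beside -0.02 over all genes. The shared sign depended on single libraries. Without adult control library 2 the log2 fold change was 0.29 for Bcan, 0.023 for Hapln2 and 0.54 for Tnr, and without adult control library 1 it was 0.32 for Hapln4.

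Stroke was last set against P4, a comparison that shares the stroke libraries with the second and the P4 libraries with the first. Of the 10 genes, 6 changed, 4 higher in stroke (Hapln2, Tnr, Bcan and Acan) and 2 lower (Ncan and Tnc), where 18.8% of all genes changed (10.8% higher and 7.93% lower). The groups did not overlap for 7 of the 10, 5 higher and 2 lower, beside 44.4% of all genes (22.6% higher and 21.7% lower). Hapln2 rose by 7.38 on the log2 scale (SE 0.48, adjusted p = 1.32e-07), Tnr by 3.49 (SE 0.46, adjusted p = 7.1e-05) and Bcan by 3.40 (SE 0.80, adjusted p = 0.00703). Ncan fell by 1.26 (SE 0.33, adjusted p = 0.0143) and Tnc by 2.30 (SE 0.74, adjusted p = 0.0417). Acan rose by 2.81 (SE 0.88, adjusted p = 0.0362). The Acan and Tnc calls were each lost whenever any 1 of the 6 libraries was left out, and the Ncan call without stroke library 5 (adjusted p = 0.0828), which left 3 calls. Over all genes, these fits called 2401 to 2905, against 3358 with all 12 libraries. Hapln1, which was lower in P4 than in adult control, had means of 18.4 ± 7.49 CPM in stroke and 20.2 ± 17.4 CPM in P4 (SD, n = 3 each; -0.13, 95% interval -1.77 to 1.51).

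Ordered by mean level, Ncan and Tnc ran in the same order of groups, from P4 through stroke and adult control to the siRNA-labelled group, and Tnr and Bcan shared another. Tnr was highest in stroke, then similar in adult control and the siRNA-labelled group, which did not differ beyond their spread, and lowest in P4. Ncan was highest in P4, followed by stroke, adult control and the siRNA-labelled group, with overlap between stroke and adult control and between adult control and the siRNA-labelled group. Tnc averaged 45.8 ± 5.76 CPM in P4, far above 9.34 ± 3.43 CPM in stroke, 8.14 ± 5.97 CPM in adult control and 3.94 ± 3.13 CPM in the siRNA-labelled group (SD, n = 3 each), and the last 3 overlapped. Vcan overlapped between most groups, and the widest gap of its means, 1170 CPM in stroke and 751 CPM in the siRNA-labelled group, did not pass.

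The enzymes and partners of the pathway were followed with lists of other genes. Of 14 enzymes that start and extend the chains, all tested, none passed in any of the 5 comparisons. Csgalnact1, which adds the first chondroitin sugar, averaged 56.5 CPM in stroke, against 14.4 CPM in adult control (log2 fold change 1.97, SE 0.59, adjusted p = 0.145). Of 7 tested sulfotransferases, none passed between stroke and adult control or between the siRNA-labelled libraries and stroke. Ust, which sulfates uronic acid, averaged 148 CPM in stroke, against 36.5 CPM in adult control (2.02, SE 0.50, adjusted p = 0.088). Chst3, the chondroitin 6-O-sulfotransferase, was at 34.4 CPM in the siRNA-labelled libraries and 113 CPM in stroke (-1.72, SE 0.51, adjusted p = 0.532). Chst3 was the 1 sulfotransferase of 7 that fell in P4 against adult control, by 3.51 (SE 0.55, adjusted p = 0.000395). That count was near the 10.4% of all genes that fell. Chst3 rose in stroke against P4 by 5.27 together with Ust by 3.17, 2 of 7 beside 10.8% of all genes higher.

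Among 20 tested proteases, inhibitors and lysosomal enzymes that break down core proteins and chains, 6 fell and 1 rose in P4 against adult control. Over all genes 10.4% fell and 6.32% rose, so the count that rose was near the background. Adamts4, an aggrecanase that cleaves lecticans, was at 3.42 CPM in P4 and 75.5 CPM in adult control (-4.45, SE 0.56, adjusted p = 5.56e-05). Plat, tissue plasminogen activator, fell by 2.32 and Arsb, a lysosomal sulfatase, by 2.11. Stroke had 9 of the 20 higher and 1 lower than P4, beside 10.8% and 7.93% of all genes, with Adamts4 higher by 5.95. The count that was lower was near the 7.93%. None of the 20 passed in the other 3 comparisons. Of 8 hyaluronan enzymes, 2 rose and 1 fell in P4 against adult control, beside 6.32% and 10.4% of all genes. The count that fell was near the 10.4%. Has3, a hyaluronan synthase, rose by 3.09 and Tmem2, a hyaluronidase, by 1.58, while Hyal1, a lysosomal hyaluronidase, fell by 4.92.

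Of 18 receptors and binding partners, 4 fell and 1 rose in P4 against adult control, beside 10.4% of all genes lower and 6.32% higher, so the count that rose was near the background. Itgav, an integrin subunit, fell by 4.73 and Itga9, an integrin subunit of tenascin-C receptors, by 3.32, while Itgb1 fell by 1.27. Sema3a, a guidance protein that binds perineuronal nets, was at 142 CPM in P4 and 27.7 CPM in adult control (2.36, SE 0.58, adjusted p = 0.0109). Stroke had 3 of the 18 higher and 2 lower than P4, near the 10.8% and 7.93% over all genes. None passed between stroke and adult control, where Cd44, a hyaluronan receptor, averaged 46.9 CPM in stroke, against 4.73 CPM in adult control (3.35, SE 0.83, adjusted p = 0.0866). Of 20 other proteoglycans, link proteins and tenascins, 7 fell and 1 rose in P4 against adult control, beside 10.4% and 6.32% of all genes. Spock3 was lower by 2.76 and Agrn, or agrin, higher by 1.58. The count that rose was near the 6.32%, and Agrn was named after its value was seen. None of these 20 passed between stroke and adult control or between the siRNA-labelled libraries and stroke, where Cd74, the invariant chain of MHC class II, was at 60.0 CPM in the siRNA-labelled libraries and 4.22 CPM in stroke (3.83, SE 0.89, adjusted p = 0.445).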

How the data were processed

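RNA from 12 libraries was sequenced as paired reads of 69 bp after amplification with the Ovation RNA-seq System v2, per the labels' protocols. The submitters' processing notes name CASAVA 1.8.2, edgeR and mm10, and no aligner, counter, annotation or strand setting is given in the sources used here. The authors deposited raw read counts per gene, which were the values tested. The authors' deposited log2 fold changes and false discovery rates (adjusted p-values) were copied where named, and 30 other per-library columns were not used here. In the table, P4 library 4 carries the name P3, and it was matched by number. Genes were filtered with filterByExpr, scaled with TMM and fitted over all 12 libraries with 1 mean per group in edgeR 4.0.16 (R 4.3.3), after tests on simulated data. Each SE was derived from the fold change and its F statistic, and 95% intervals from that SE and the t distribution of the fit. Exon lengths are the union of GENCODE M21 exons. Marker shares are percent of all counts. The 10 genes and all lists were chosen with earlier results of these data known. Named genes are the 10, Gdf10, the list members with the smallest p (up to 4 called ones, otherwise 1), markers of cell types that make the 10, and for each of the 10 the 3 genes with the nearest profile. Agrn, outside this rule, was named after its value was seen. Not every gene that the rule names is reported here. Alternatives were other scalings, no filter, DESeq2 1.42.0, fits of 2 groups, a replicate block and leaving out each library.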

Additional observations from a re-analysis of the deposited data

How the results depend on the processing

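Of the values of single genes, under settings other than leaving out a library, 254 kept direction and side of the threshold, 6 lost the call, 8 gained it and 2 changed sign. With 1 library left out these counts were 253, 27, 2 and 18. Called counts of the 10 genes under other settings were 2 for stroke against adult control with DESeq2, and 1 with DESeq2 and 2 in a fit of the compared groups for siRNA-labelled libraries against stroke. For P4 against adult control the fit of the compared groups called 3 and DESeq2 8, and for stroke against P4 both called 7, with Hapln4 gained (adjusted p of 0.00783 and 0.0495). With 1 library left out they ran from 0 to 1 for stroke against adult control, from 3 to 7 for P4 against adult control and from 3 to 4 for stroke against P4.

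Counts over all genes moved more. Stroke against adult control gave 126, 1240 with DESeq2 (404 higher and 836 lower, against 87 and 39), 43 in a fit of both groups alone and 31 to 549 with 1 library left out. With library totals alone the split was 65 higher and 48 lower. The siRNA-labelled group against stroke gave 1, 0 with DESeq2 size factors, 2 without filter, 161 with DESeq2, 88 in a fit of both groups and 0 with any library left out. The siRNA-labelled group against adult control gave 21, 13 with DESeq2 size factors, 13 with library totals, 40 without filter, 333 with DESeq2, 0 in a fit of both groups and 5 to 25 with 1 library left out. P4 against adult control gave 3001, 4529 with DESeq2, 1639 in a fit of both groups and 1852 to 3099 with 1 library left out. Stroke against P4 gave 3358, 4650 with DESeq2, 4789 in a fit of both groups, 2463 with the replicate block and 2401 to 2905 with 1 library left out. The cause was not tested. DESeq2 size factors moved the median of all genes from -0.08 to -0.19 in stroke against adult control, and from -0.04 to -0.16 in stroke against P4.

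Signs turned with 1 library left out for some uncalled values. In stroke against adult control they ran from -1.05 to 0.25 for Acan, -0.89 to 0.29 for Cspg5, -1.28 to 0.24 for Hapln4 and -0.19 to 0.92 for Tnc. In the siRNA-labelled group against adult control they ran from -1.56 to 0.29 for Bcan, -0.39 to 0.023 for Hapln2, -2.16 to 0.32 for Hapln4 and -0.30 to 0.54 for Tnr. They ran from -1.45 to 0.55 for Hapln4 against stroke, and in P4 against adult control from -0.37 to 0.24 for Vcan and -0.54 to 0.64 for Cspg5. In stroke against P4 Hapln1 ran from -0.55 to 0.81.

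Replicate numbers are shared by siRNA-labelled and adult control libraries (1 to 3) and by stroke and P4 (4 to 6). Deviations of same-numbered libraries from their group means had correlations of 0.0642, -0.191 and -0.336 in the first pair of groups. In stroke and P4 they were 0.16, 0.0136 and 0.153. Different-numbered libraries ran from -0.317 to 0.481 in the first pair and from -0.175 to 0.151 in stroke and P4. With 3 libraries per group centred on their own mean, these values cannot decide whether libraries were paired, and no pairing is known. With the replicate block, 4 of the 10 genes were called in stroke against P4, and the count over all genes was 11 for the siRNA-labelled group against adult control. Under the block Tnr was at 0.081 in the siRNA-labelled group against adult control and Hapln1 at 0.12 in stroke against P4. Adult control library 3 had the fewest counts of all libraries, 10517638.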

Other observations

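For each of the 10 genes, the 3 genes with the nearest profile over the 12 libraries were found by the root mean square difference of centred log2 CPM, among 10565 genes averaging 5 CPM or more. All 12 libraries enter, so differences between P4 and the adult groups weigh heavily. Hapln2 lay nearest to Neat1 (0.27), a nuclear long RNA, and Evi2a (0.33), beside a median difference of 3.42 to all candidates. Tnr lay nearest to Lbh (0.28), Slc39a1 (0.32) and Lamc1 (0.33), a laminin chain, beside a median of 1.55. Bcan lay nearest to Notch1 (0.39), a receptor of cell fate signalling, Ptpn14 (0.49) and Ckb (0.50), brain creatine kinase, beside a median of 1.74. Ncan lay nearest to Fry (0.29), Sfxn1 (0.33) and Gng3 (0.33), a neuronal G protein subunit, beside a median of 1.19. Vcan lay nearest to Nxph1 (0.28), a neurexin ligand, beside a median of 0.99. Hapln4 and Tnc had no neighbour closer than 0.73 and 0.72. Among pairs of the 10 genes, Vcan and Cspg5 (0.70) and Bcan and Tnr (0.75) were nearest.

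Hapln2 also varied relative to a myelin gene. It had 0.219, 0.232 and 0.132 counts per count of Mog, a myelin surface protein, in the siRNA-labelled libraries, against 0.101, 0.0945 and 0.116 in stroke. It had 0.0387, 0.0584 and 0.0833 in P4, against 0.317, 0.309 and 0.990 in adult control. Per count of Mbp, another myelin gene, Hapln2 had 0.00877, 0.00549 and 0.0136 in P4, against 0.0449, 0.0488 and 0.0892 in adult control. Counts of Hapln2 in P4 were 14, 15 and 6, so the P4 ratios carry wide counting error. Over the 12 oligodendrocyte markers, which include Mog and Mbp, the median log2 fold change in P4 against adult control was -8.66, beside -8.27 for Hapln2. The lower ratios to Mog and Mbp thus do not show a larger fall than that of the list as a whole.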
